A study of Mus musculus with 4 samples.

Results

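The inflammatory CC chemokines Ccl2, Ccl3, Ccl4, Ccl5, Ccl6, Ccl7, Ccl8, Ccl9, Ccl11 and Ccl12 were followed in the endothelium of the mouse heart after injection of bacterial lipopolysaccharide (LPS). They were chosen by name from the array's annotation, which gave 10 oligonucleotides for the 10 genes, out of 16224 oligonucleotides and 11138 named genes in all. Each oligonucleotide was printed as 2 adjacent spots, so each gene had 2 values per array. Their identifiers in the annotation were the GenBank entries M19681 (Ccl2), M73061 (Ccl3), NM_013652 (Ccl4), U02298 (Ccl5), M58004 (Ccl6), X70058 (Ccl7), AB023418 (Ccl8), U15209 (Ccl9), U40672 (Ccl11) and U50712 (Ccl12).

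Chemokines are small secreted proteins that guide leukocytes out of the blood. Endothelial cells both make them and display them on heparan sulphate at their surface, where rolling leukocytes meet them. The members of the CC group carry 2 neighbouring cysteines near the start of the mature protein and act on receptors of the CCR family. Endothelium senses LPS through Toll-like receptor 4, which leads to activation of NF-kB, a transcription factor that drives many chemokine genes.

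The mice received LPS or saline into the peritoneum, and cardiac endothelium was collected after 4 h or 24 h. Strain, age, sex, LPS dose, the way the cells were isolated and the number of animals were not stated in the labels. RNA was amplified, and LPS and saline RNA were hybridised together on 4 arrays of long oligonucleotides, 2 per time. LPS RNA carried the dye Cy5 on the first array of each time and Cy3 on the other, the reversed array. No separate animals or extracts were named for the reversed arrays, so the 2 arrays of a time were counted as 1 replicate. The saline label of the first 4 h array names 4 h, and whether the saline RNA of the 2 times came from the same animals was not stated.

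All values below are log2 ratios of LPS over saline, centred on each array's median over genes, so that 1 is a 2-fold difference. The deposited table does not state its direction. The ratios were read as Cy5 divided by Cy3, and those of the reversed arrays were multiplied by -1. To check the turn, oligonucleotides with a ratio of exactly 1 at either spot on either array of a time were left out. The 2 spots of the others had to agree within 0.5 log2 units on both arrays. Over those kept, Pearson's r between the arrays as deposited was -0.37 at 4 h (5023 oligonucleotides) and -0.50 at 24 h (3668). Without these 2 filters, over all 32448 spots, it was -0.06 at both times. The negative r goes with turning the sign of the reversed arrays. It would be the same had the ratios been Cy3 divided by Cy5, so it cannot show which way round they run. The direction LPS over saline is therefore an assumption that was not tested. A gene counted as called at a time if it was at least 2-fold on both arrays in the same direction. Means are given ± SD over the dye-reversed pair (n = 2 arrays). This SD measures how far the pair disagreed, and says nothing about variation among mice. The table holds ratios and no intensities, so whether a spot was bright or near background, and whether the endothelial markers were abundant, could not be seen.

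At 4 h, Ccl2 was the 1 called member of the 10, and it was higher after LPS. Of all 11138 genes, 3.25% were called in either direction, 2.25% higher and 0.997% lower. Ccl2 encodes monocyte chemoattractant protein 1, the main ligand of the receptor CCR2 on inflammatory monocytes. Its 2 spots read 4.16 and 4.34 on the first array and 3.88 and 3.82 on the reversed array. All 4 spots thus lay close together, and none came near the 2-fold line. The gene mean was 4.05 ± 0.28, or 16.6-fold, and 8 of the 11138 genes had a higher mean. With no sign turned, the mean would be 0.20 and Ccl2 would not be called. The median over the 10 members was -0.02, and over all genes it was -0.02 as well. In bulk RNA of an isolate, a change in RNA per cell and a change in which cells were collected cannot be told apart.

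At 24 h Ccl2 was again the 1 called member, and 0 members were called lower. Of all genes, 7.00% were called in either direction, 3.48% higher and 3.52% lower. The spots read 1.13 and 1.17 on the first array and 2.18 and 2.43 on the reversed array. Every spot was above 0, but those of the first array passed the 2-fold line only narrowly. The mean was 1.73 ± 0.82, or 3.31-fold. When the arrays were scaled to equal spread, Ccl2 was no longer called at 24 h, and it was not called at a 3-fold threshold.

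**Figure D1:**
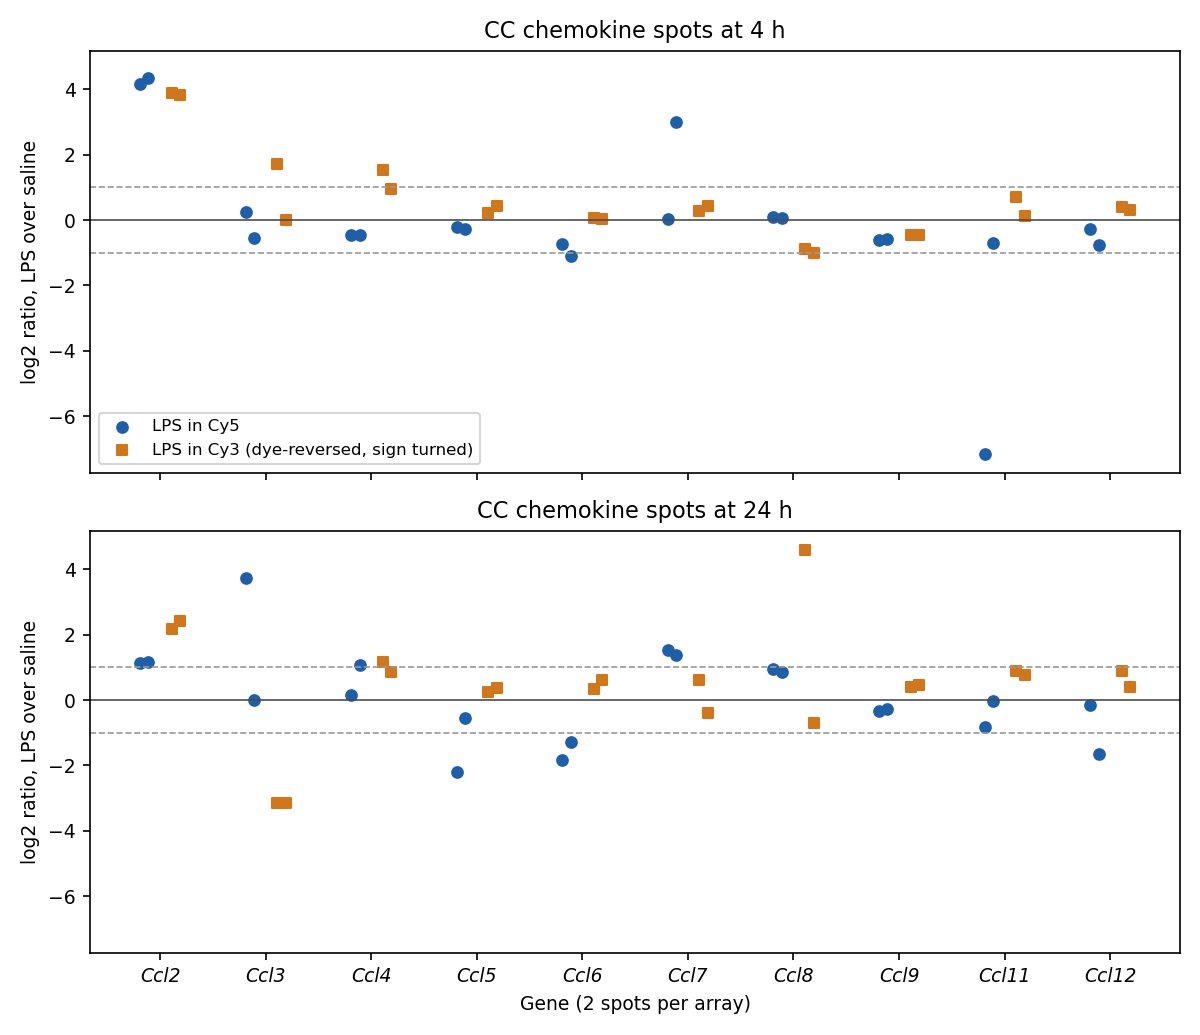
Log2 ratio of LPS over saline for each of the 2 spots of the 10 CC chemokine genes, at 4 h (top) and 24 h (bottom), with circles for the array with LPS in Cy5, squares for the dye-reversed array after its sign was turned, and dashed lines at 2-fold. The 4 spots of Ccl2 sit together near 4 at 4 h and between 1.13 and 2.43 at 24 h, while single spots of Ccl11 (-7.15 at 4 h), Ccl7 (3.0 at 4 h), Ccl3 (3.72 at 24 h) and Ccl8 (4.59 at 24 h) stand far from their partners.

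The fall of Ccl2 from 4 h to 24 h measured -2.32 log2 units, and both arrays of 24 h lay below both of 4 h. A difference between the times was called if it reached 2-fold and the arrays of 4 h and 24 h did not overlap. This held for 2 of the 10 members, 1 lower and 1 higher at 24 h, and for 19.8% of all genes, 10.3% lower and 9.43% higher, so the criterion was met often. For Ccl2 the separation also held spot by spot, since the lowest spot of 4 h (3.82) was above the highest of 24 h (2.43). The other called member was Ccl8, described with its spots below.

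The arrays were also taken as separate samples in limma, with a mean per time and Benjamini-Hochberg adjustment over all genes. No separate animals were named for the reversed arrays, so the limma p-values rest on disagreement within the dye-reversed pairs. Neither these p-values nor the number of genes passing says anything about variation among mice. limma gave Ccl2 a p of 0.000383 at 4 h and 0.0136 at 24 h, with adjusted p-values of 0.41 and 0.42, and for 24 h minus 4 h a p of 0.0164 and an adjusted p of 0.80. No gene passed an adjusted p of 0.05 in limma at either time or between the times. At an unadjusted p under 0.05, limma had 475 genes (4.26%) at 4 h, 1126 (10.1%) at 24 h and 638 (5.73%) between the times.

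Ccl2 opens a run of 5 chemokine genes on chromosome 11, with Ccl7, Ccl11, Ccl12 and Ccl8 following in this order and 0 other protein-coding genes between them in the RefSeq annotation of GRCm38.p6. These are the monocyte chemoattractant and eotaxin genes. The other 5 members, Ccl5, Ccl9, Ccl6, Ccl3 and Ccl4, form a second run on the same chromosome, 26 protein-coding genes further on. Files and labels name no genome build, so the annotation was used here for gene order alone. The median of the run that holds Ccl2 was -0.07 at 4 h and 0.79 at 24 h, and that of the other run 0.04 and -0.53. Over all genes it was -0.02 at both times. With 5 genes in a run, a median is the mean of 1 gene, at 24 h that of Ccl7 and that of Ccl5. Neither gene was called, and the 2 arrays of Ccl5 had opposite signs. A difference between the runs was not tested.

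Ccl7, monocyte chemoattractant protein 3, is a second ligand of CCR2 and the nearest neighbour of Ccl2. At 4 h its spots read 0.04 and 3.0 on the first array and 0.29 and 0.43 on the reversed array, so 1 spot of 4 stood apart. The mean of 0.94 ± 0.82 came from that spot, as the other spot alone gave 0.16. At 24 h the spots read 1.53 and 1.38 on the first array and 0.61 and -0.39 on the reversed array, with a mean of 0.79 ± 0.95. Both array means were thus above 0 at both times, but the 2-fold line was passed on the first array alone. With Ccl2, Ccl7 was 1 of 2 members whose mean was above 0 on all 4 arrays, where 8.0% of all genes were.

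Ccl8, monocyte chemoattractant protein 2, is in the mouse a ligand of CCR8. At 4 h its spots read 0.10 and 0.07 on the first array and -0.89 and -1.02 on the reversed array. Duplicate spots were close there, but the 2 arrays did not share a direction. At 24 h they read 0.96 and 0.86 on the first array and 4.59 and -0.69 on the reversed array. The means were -0.44 ± 0.73 and 1.43 ± 0.74, and Ccl8 was called between the times at 1.87. That call rested on the 4.59 spot: the difference was 3.18 with the first spot alone and 0.56 with the second, which is below the 1 log2 unit required.

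Ccl12, monocyte chemoattractant protein 5, is a rodent ligand of CCR2. Its spots read -0.26 and -0.76 on the first array of 4 h and 0.41 and 0.32 on the reversed array. At 24 h they were -0.14 and -1.65 on the first array and 0.89 and 0.39 on the reversed array. All first-array spots were below 0 and all reversed-array spots above it, and the means were -0.07 ± 0.62 and -0.13 ± 1.09.

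Ccl11, eotaxin, attracts eosinophils through CCR3. At 4 h the spots read -7.15 and -0.69 on the first array and 0.70 and 0.12 on the reversed array. The mean of -1.75 ± 3.07 was the lowest of the 10 members, and it came from the -7.15 spot, since the other spot alone gave -0.28. At 24 h the spots were -0.81 and -0.03 on the first array and 0.88 and 0.76 on the reversed array, with a mean of 0.20 ± 0.88. As for Ccl12, spots of the first arrays were below 0 and those of the reversed arrays above it at both times.

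In the second run, Ccl3 and Ccl4, the macrophage inflammatory proteins 1 alpha and 1 beta, attract monocytes and T cells, and Ccl3 acts on CCR1. Ccl3 read 0.25 and -0.55 on the first array of 4 h and 1.71 and 0.01 on the reversed array, with a mean of 0.36 ± 0.72. At 24 h it read 3.72 and 0.01 on the first array and -3.15 at both spots of the reversed array. This was the widest disagreement between arrays among the members at 24 h, with a mean of -0.64 ± 3.55, and Ccl3 was the 1 member that was at least 2-fold in opposite directions on the 2 arrays, as 3.69% of all genes were. Both statements rest on the turned sign, and the opposite 2-fold values also on the 3.72 spot, as its partner read 0.01. The mean at 24 h was 0.29 with the first spot alone and -1.57 with the second. With no sign turned, the mean of Ccl3 at 24 h would be 2.51, and Ccl3 would be the 1 called member at that time. That call would rest on the 3.72 spot as well.

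Ccl4 read -0.44 at both spots of the first array of 4 h and 1.53 and 0.96 on the reversed array, a mean of 0.40 ± 1.2. At 24 h its spots were 0.16 and 1.06 on the first array and 1.18 and 0.86 on the reversed array. All 4 spots of 24 h were thus above 0, with a mean of 0.81 ± 0.28, or 1.76-fold. Ccl4 did not reach the 2-fold call. At a 1.5-fold threshold it was called at 24 h together with Ccl2 and Ccl8, as were 1808 of all 11138 genes. The Ccl8 call rested on its 4.59 spot, whose partner on that array read -0.69.

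Ccl5, known as RANTES, attracts T cells and monocytes through receptors that include CCR1 and CCR3. Its spots at 4 h were -0.20 and -0.28 on the first array and 0.21 and 0.43 on the reversed array, a mean of 0.04 ± 0.40. At 24 h they were -2.20 and -0.56 on the first array and 0.25 and 0.38 on the reversed array, a mean of -0.53 ± 1.2. No direction was shared by the 2 arrays at either time.

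Ccl6 and Ccl9 are ligands of CCR1 made mainly by myeloid cells of the mouse. Ccl6 read -0.72 and -1.09 on the first array of 4 h and 0.07 and 0.04 on the reversed array, a mean of -0.42 ± 0.68. At 24 h it read -1.83 and -1.28 on the first array and 0.33 and 0.61 on the reversed array, a mean of -0.54 ± 1.43. The 2-fold line was passed on the first array of 24 h and not on its partner.

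Ccl9 had the closest duplicate spots of all members, with gaps of at most 0.05 log2 units on the 4 arrays. At 4 h it read -0.60 and -0.57 on the first array and -0.44 at both spots of the reversed array. This was the 1 member whose 4 spots of 4 h all lay below 0, at a mean of -0.52 ± 0.10, or 0.699 times saline, which is short of 2-fold. At 24 h it read -0.32 and -0.28 on the first array and 0.41 and 0.46 on the reversed array, a mean of 0.07 ± 0.52.

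Several members had opposite signs on the 2 arrays of a time, and mostly in the same order. At 4 h, 6 of the 10 members (Ccl3, Ccl4, Ccl5, Ccl6, Ccl11 and Ccl12) had a mean below 0 on the first array and above 0 on the reversed array, as did 23.5% of all genes. At 24 h this held for 5 members (Ccl5, Ccl6, Ccl9, Ccl11 and Ccl12), against 23.8% of all genes. Ccl5, Ccl6, Ccl11 and Ccl12 did so at both times, 4 of 10 members against 8.96% of all genes. Before the sign was turned, these 4 genes were below 0 on all 4 arrays. Outside the members, Ccl1 had the same order at both times, at -0.57 and 0.32, then -1.06 and 0.68. Most of the other CC chemokines measured did not have it. The pattern is a description of these arrays, and the part of dye in it was not tested.

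**Figure D2:**
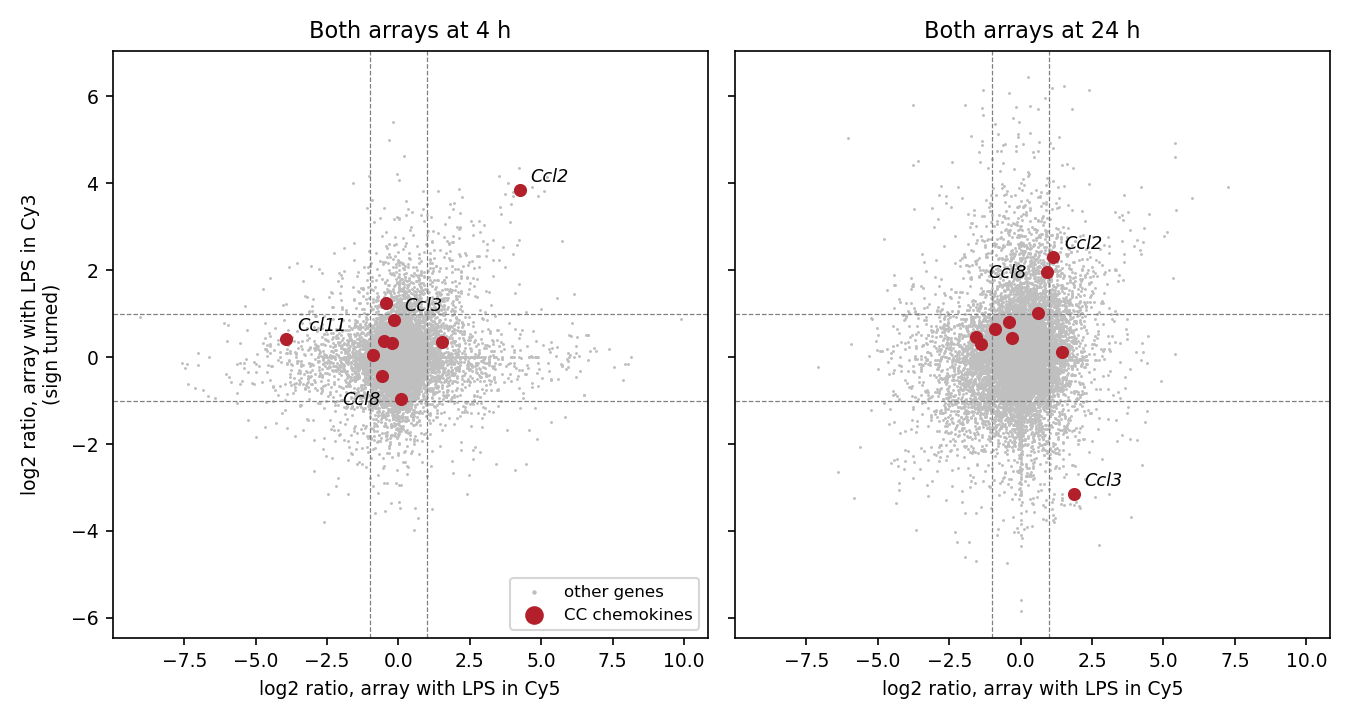
Log2 ratio on the array with LPS in Cy5 (x axis) against the dye-reversed array after its sign was turned (y axis), for all 11138 genes in grey and the 10 CC chemokine genes in red, at 4 h and 24 h, with dashed lines at 2-fold. Ccl2 lies in the upper right corner at 4 h (4.25 and 3.85) and just inside it at 24 h (1.15 and 2.31), while Ccl3 at 24 h lies at 1.87 and -3.15.

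Duplicate spots gave a measure of precision within an array. The 2 spots of an oligonucleotide differed by more than 1 log2 unit in 7 of the 40 pairs of a member and an array (17.5%, with gaps within 1e-05 of 1 not counted), and in 25.0% of such pairs over all named oligonucleotides. For Ccl2 the gaps were 0.17 and 0.07 at 4 h and 0.05 and 0.24 at 24 h, each below the median gap of its array, which was 0.41, 0.24, 0.49 and 0.47. The gaps of Ccl8 reached 5.28 on the reversed array of 24 h, and those of Ccl11 6.46 on the first array of 4 h. Whether an oligonucleotide also bound RNA of a related chemokine was not tested.

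The pattern of Ccl2 was compared with that of other genes by the root mean square difference over the 4 arrays, among the 6614 genes whose spots all lay within 1 log2 unit of the gene mean. The nearest was Ifit2, an interferon-induced antiviral protein, at a difference of 0.56, with 3.92 ± 0.13 at 4 h and 1.26 ± 0.04 at 24 h. The second was Cxcl1, a neutrophil attractant of the CXC group, at 0.65, with 3.84 ± 0.46 and 1.49 ± 0.14. The third was Cebpd, a transcription factor, at 0.67, with 3.51 ± 0.07 and 1.01 ± 1.16. All of them were called higher at 4 h, and at 24 h Cebpd was not called.

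**Figure D3:**
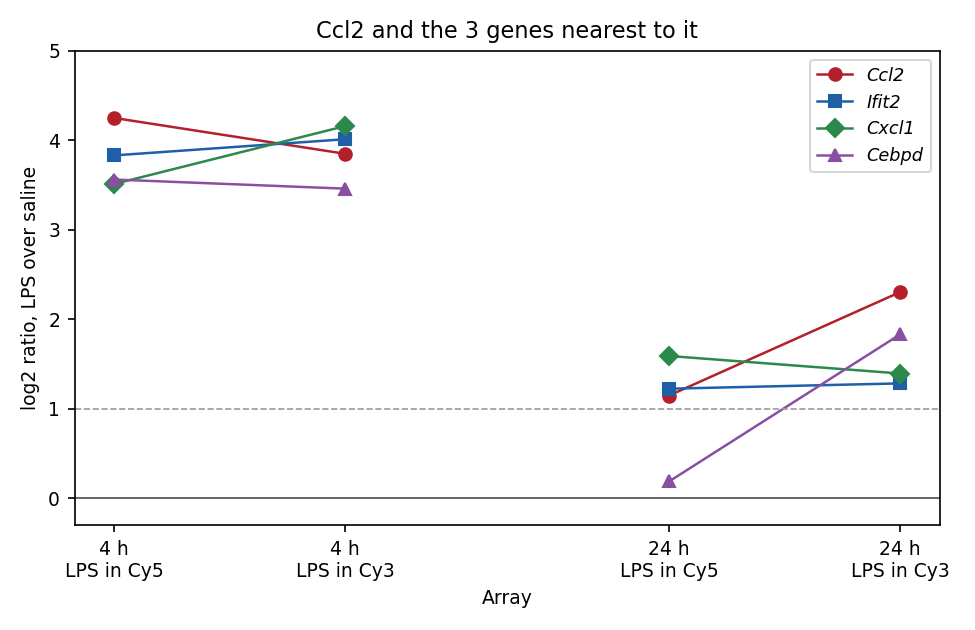
Log2 ratio of LPS over saline on each of the 4 arrays for Ccl2 and the 3 genes nearest to it over the 4 arrays, with lines joining the 2 arrays of a time and a dashed line at 2-fold. All 4 genes lie between 3.46 and 4.25 at 4 h and at or below 2.31 at 24 h.

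The receptors of these chemokines were read in the same isolate. Of 16 CC and atypical chemokine receptor genes listed, 13 were measured, and 1 was called higher at 4 h, 0 lower, 0 higher at 24 h and 2 lower. Of all genes, 2.25% were called higher at 4 h and 3.52% lower at 24 h. Ccr2, the receptor of Ccl2, read 1.15 and -0.48 at 4 h and 0.39 and 0.06 at 24 h on the 2 arrays, without a call. Ccr1, a receptor of Ccl3, Ccl5, Ccl6 and Ccl9, read 0.31 and -0.33 at 4 h and 0.62 and 1.02 at 24 h, and Ccr3, the eotaxin receptor, stayed between -0.21 and 0.52 on the 4 arrays. Ccr8, the receptor of Ccl8, lay between 0.17 and 0.25 on the 4 arrays. None of Ccr1, Ccr2, Ccr3 and Ccr8 was thus called. Ackr1, the Duffy antigen receptor that venular endothelium uses to carry chemokines across the cell, read 0.58 and -0.42 at 4 h and 0.88 and 0.38 at 24 h, and the scavenging receptor Ackr2 lay between -0.03 and 0.36.

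The called receptors were of other kinds. Ccrl2, a chemokine-binding relative of the CC receptors that does not signal to chemokines, was higher at 4 h at 1.21 ± 0.07 and stood at -0.07 ± 0.04 at 24 h. Ccr9, the receptor of Ccl25, was lower at 24 h at -2.46 ± 0.55, and Ccr1l1, a mouse relative of Ccr1, at -1.31 ± 0.002. These, with Ccr10, were also the 4 receptors of 13 called lower at 24 h than at 4 h, as 10.3% of all genes were.

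**Figure D4:**
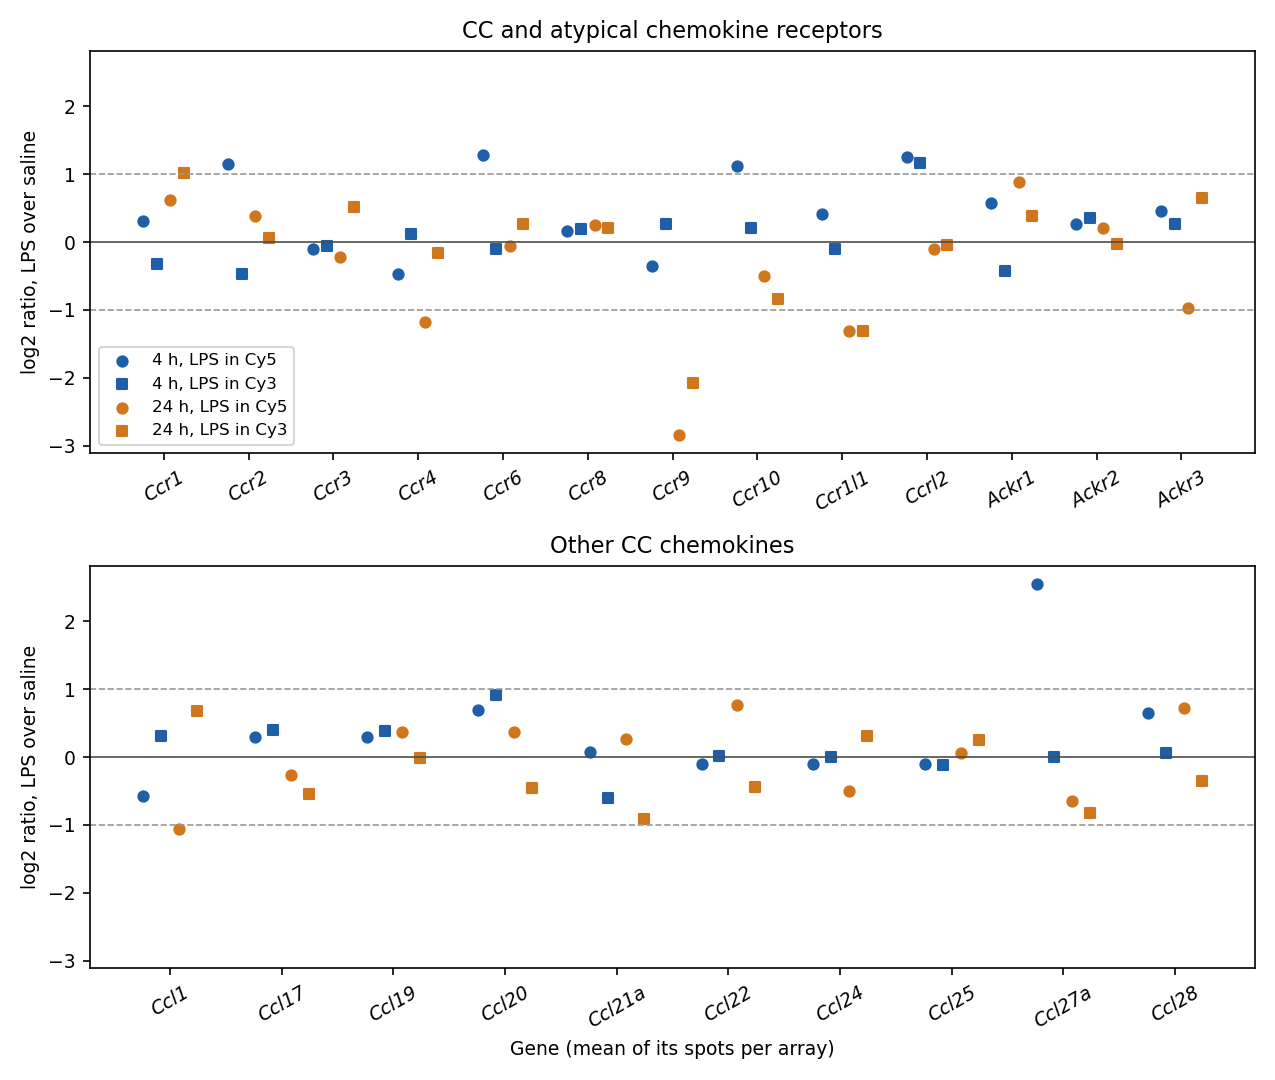
Log2 ratio of LPS over saline on each array for 13 CC and atypical chemokine receptors (top) and 10 other CC chemokines (bottom), with blue for 4 h, orange for 24 h, circles for LPS in Cy5, squares for the dye-reversed arrays and dashed lines at 2-fold. Ccrl2 lies above 1 on both arrays of 4 h, Ccr9 and Ccr1l1 lie below -1 on both arrays of 24 h, and no other gene shown passes 2-fold on both arrays of a time.

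Of 12 other CC chemokines listed, among them homeostatic and T-cell attracting members, 10 were measured and 0 were called at 4 h or at 24 h. Of all genes, 3.25% were called at 4 h and 7.00% at 24 h. limma gave 0 genes of the whole table at an adjusted p of 0.05. Their means ran from -0.26 to 1.27 at 4 h and from -0.73 to 0.19 at 24 h. Ccl20, an attractant of CCR6-bearing cells, was at 0.80 ± 0.16 at 4 h, with both arrays above 0 and neither at 2-fold. Ccl27a, at 1.27 ± 1.80 at 4 h, read 2.55 on the first array and 0 on the reversed one. It was the 1 gene of these 10 called between the times, at -2.01, against 19.8% of all genes.

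Genes of the path from LPS to chemokine transcription were called in 3 of 25 cases at 4 h, all higher, and in 1 of 25 at 24 h, also higher. Of all genes, 2.25% were called higher at 4 h and 3.48% at 24 h. Rela, a subunit of NF-kB, was at 1.57 ± 0.28 at 4 h and -0.22 ± 0.14 at 24 h. Irf1, an interferon regulatory factor, was at 1.96 ± 1.33 and 0.39 ± 0.27, and Lbp, the LPS-binding protein, was called at both times at 1.64 ± 0.10 and 1.91 ± 0.92. The medians of the list were 0.15 at 4 h and 0.13 at 24 h, against -0.02 at both times over all genes. Of 13 measured genes of heparan sulphate proteoglycans and their enzymes, the surface that holds chemokines, 0 were called at either time. Of all genes, 3.25% were called at 4 h and 7.00% at 24 h, so a list this short would hold few or no calls.

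Markers of the cells that the isolate could hold were read beside Ccl2. Of all genes, 3.25% were called at 4 h and 7.00% at 24 h. Lists as short as these would hold few or no calls at that share. Of 17 measured monocyte and macrophage markers 0 were called at 4 h or 24 h, with medians of -0.25 and -0.27. Their means at 24 h ran from -1.52 to 2.07, and 1 of them was called lower at 24 h than at 4 h. Of 8 eosinophil and mast cell and 6 fibroblast markers 0 were called at 4 h or 24 h. At 4 h, when Ccl2 was highest, 0 of 12 neutrophil, 12 T and NK cell and 11 cardiomyocyte markers were called. At 24 h, 3 neutrophil genes were called higher, S100a8 (2.59 ± 1.17), S100a9 (1.55 ± 0.08) and Fpr2 (1.2 ± 0.08), and 1 lower, Ngp (-1.62 ± 0.82). Of the T and NK cell markers, Cd5 (-2.0 ± 1.0) was the 1 called at 24 h, and of the cardiomyocyte markers Ryr2 (-1.40 ± 0.11), both lower. The medians at 24 h were -0.10 for neutrophil, 0.01 for T and NK cell and -0.23 for cardiomyocyte markers, against -0.02 over all genes.

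Of 17 endothelial markers, Cldn5 of tight junctions was called higher at 4 h (1.29 ± 0.10), and the receptors Kdr at -1.89 ± 0.75 and Eng at -1.87 ± 0.84 were lower. At 24 h, Kdr at 2.21 ± 0.48, Eng at 3.91 ± 0.85, Cav1 at 1.15 ± 0.19 and Gpihbp1 at 4.06 ± 0.21 were higher, and 0 were lower. Of all genes, 2.25% were called higher and 0.997% lower at 4 h, and 3.48% higher and 3.52% lower at 24 h. The median of the endothelial markers was -0.06 at 4 h and 0.54 at 24 h. The part of the make-up of the isolate in the values of Ccl2 was not tested.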

How the data were processed

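The deposited table held log2 ratios of 2 dyes for 32448 spots on each of 4 arrays. Background correction, dye normalization and spot filters were not stated in labels or file, and precision is limited by having 2 arrays per time. Names came from the platform annotation (24344 spots with 1 symbol, 98 with several, 8006 not listed). Each array with LPS in Cy3 had its sign turned. Means were taken over the 2 spots of an oligonucleotide and then within a gene. Subtracting the median of the 11138 genes moved an array by at most 0.06. Calls needed 2-fold on both arrays. limma 3.58.1 (R 4.3.3) and the other alternatives are in the closing section, and the scripts (Python 3.11.15) were tested on simulated data. The members and gene lists were chosen with earlier results of these data known. The genes named were the 10 members, the called genes of the lists and the 3 genes nearest to each member called at 4 h or at 24 h, which was Ccl2. Other genes of the chemokine and receptor lists were named after their values were seen.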

Additional observations from a re-analysis of the deposited data

Results flagged for a closer look

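None of the 10 CC chemokines lay on one side of 0 on both arrays of 4 h and on the other side on both arrays of 24 h. Of the called list genes, the genes nearest to Ccl2 and all measured CC chemokines and receptors of the lists, 12 others did. The difference between the times, as log2 LPS over saline at 24 h minus 4 h, was 5.77 for Eng, 4.97 for Gpihbp1, 4.10 for Kdr, 2.71 for S100a8, 1.87 for S100a9, 1.78 for Cav1 and 0.27 for Ccl25, all below 0 at 4 h and above it at 24 h. It was -1.96 for Cldn5, -1.79 for Rela, -1.33 for Ccr10, -1.27 for Ccrl2 and -0.75 for Ccl17, all above 0 at 4 h and below it at 24 h. These differences were not tested in a way that treats animals as replicates.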

How the results depend on the processing

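Ccl2 was the 1 member called at 4 h, the 1 called at 24 h, and with Ccl8 the 2 called between the times. These calls were the same without ratios of exactly 1, without centring and after quantile normalization. With every spot required to be 2-fold, Ccl2 was called at both times, and it alone (1 member) was called between the times. With scale normalization 0 members were called at 24 h, as at a 3-fold threshold, and at 1.5-fold 3 were, Ccl2, Ccl4 and Ccl8. The 1.5-fold threshold called 1808 of all genes at 24 h. With no sign turned, 0 members were called at 4 h and 1, Ccl3, at 24 h and between the times. Ccl2 then stood at 0.20 at 4 h and -0.58 at 24 h, so its calls rest on turning the reversed arrays. Under the spot filters used above for Pearson's r, 186 oligonucleotides were at least 2-fold on both arrays of 4 h. Of these, 180 had opposite deposited signs, and at 24 h 435 of 458 did. Both counts go with that turn. The direction of the Ccl2 calls rests on reading the ratios as Cy5 divided by Cy3. limma called 0 members and 0 genes at either time or between them.

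With 1 array left out, a call needed only the other array. From 2 to 3 members were then called at 4 h, 4 to 5 at 24 h and 2 to 5 between the times. Ccl2 was among them each time. Ccl11 at 4 h was called on the first array alone, and Ccl3 at 24 h was called higher on the first array alone and lower on the reversed array alone. Of all genes, 1414 to 2317 were called at 4 h, 3239 to 3408 at 24 h and 2968 to 4001 between the times.

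Of all genes at 4 h, 362 were called, and 175 with every spot 2-fold, 561 after quantile and 557 after scale normalization, 941 at 1.5-fold, 126 at 3-fold and 158 with no sign turned. Of these, 251 of 362 were higher, 333 of 561 after quantile normalization. At 24 h 780 were called, and 406 with every spot 2-fold, 424 after scale normalization, 1808 at 1.5-fold, 235 at 3-fold and 411 with no sign turned. Between the times 2201 were called, and 1006 with separated spots, 3338 at 1.5-fold, 1066 at 3-fold and 1298 with no sign turned. Each spot taken alone was added after seeing the data, and put Ccl8 at 24 h at 2.78 or 0.09.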

Other observations

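Several duplicate spots of the members held the same value to the last digit. The 2 spots of Ccl4 on the first array of 4 h, of Ccl9 on the reversed array of 4 h and of Ccl3 on the reversed array of 24 h had a gap of 0. Deposited ratios were folds rounded to 0.01, to within 2.03e-06 of a fold unit for values under 2 log2 units. No member spot had a ratio of exactly 1, while 10.2% to 13.4% of all spots of an array did.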
